A study of Mus musculus with 4 samples.

Results

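The HoxB, HoxC and HoxD clusters were covered by 1089 of the 520554 probed regions of a mouse promoter and CpG island array: 352 in HoxB, 363 in HoxC and 374 in HoxD. They were taken by name, as every non-control probe that the array design assigns to a gene called Hoxb, Hoxc or Hoxd with a number, and no measured value entered the choice. They belong to 28 genes, 10 in HoxB, 9 in HoxC and 9 in HoxD, and 685 of the 1089 passed the signal filters (228, 223 and 234 by cluster). All 1089 probe sequences matched the mm9 genome, on the plus strand, and the label of the set was borne out by position: the probes spanned chromosome 11, 96050153 to 96229562 (HoxB), chromosome 15, 102746340 to 102866437 (HoxC) and chromosome 2, 74501961 to 74603295 (HoxD).

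DNA of mouse leukaemic cells, WT or KO, was taken from untreated cells and from cells given decitabine, which makes 4 groups, and each group has 1 array. Decitabine was given at 20 nM, with a dose every 24 h over 3 days. Harvest was at 72 h in every group, from medium that held interleukin-6, interleukin-3 and stem cell factor. The source names are Mll5WTHM and Mll5KOHM and the cell line field reads MII5 in all groups, whereas the genotype field reads wild type or HOXA9 KO, so the labels disagree on which gene the KO cells lack. The labels do not explain HM, do not say how the leukaemic cells were made, and do not say whether the arrays came from separate cultures or a single clone. Immunoprecipitated methylated DNA (MeDIP), labelled with Cy3, competed on each array with unenriched input DNA labelled with Cy5. With 1 array per group no difference between 2 arrays has a replicate check, and a ± after a gene's value is the SD among the gene's own probes, which lie close together and are not replicates.

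Hox genes encode homeodomain transcription factors that give cells their position along the body axis, and they lie in compact clusters in which gene order follows the order of expression along that axis. Paralogous genes of different clusters share a number, the low numbers being the anterior and the high numbers the posterior genes. In blood, several Hox genes are active in stem and progenitor cells and are shut down as cells mature, and their persistent activity is a feature of many myeloid leukaemias. The clusters are rich in CpG islands, which are held silent in most tissues by polycomb proteins and can gain DNA methylation in cancer. Decitabine, a deoxycytidine analogue, is built into replicating DNA and binds DNA methyltransferases there, which lowers methylation as cells divide.

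The level of a probe is given as the log2 ratio of MeDIP over input, centred on the median of all kept probes of its array. The level of a gene is the mean over its kept probes. A probe is called bright on an array where its MeDIP signal was well above background by the scanner software's own test. Values listed for 4 arrays give the untreated pair first (WT untreated, then KO untreated) and the decitabine pair second (WT decitabine, then KO decitabine). Probes differ in their response to the same amount of DNA, so where levels of different probes, probe classes or genes are set side by side they describe the ratios measured and give no order of methylation.

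The following probe sequences show what was hybridised at regions with MeDIP signal well above background on every array. They are, for each cluster, the 3 probes bright on all 4 arrays that had the highest mean log2 ratio, leaving out those that overlap an untranslated region. A bright probe need not have a high ratio over input: the Hoxb3 probes at 96206797 and 96193941 had mean log2 ratios of -0.70 and -1.17. CpG dinucleotides, the sites that can carry methylation, are in capitals. Of these 9 probes, 7 hold no CpG themselves; MeDIP pulls down fragments longer than a probe, so a probe reports on the CpG around it.
Hoxb3 intron, chr11:96204519-96204578, plus strand: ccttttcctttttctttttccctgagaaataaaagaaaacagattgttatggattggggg
Hoxb3 intron, chr11:96206797-96206847, plus strand: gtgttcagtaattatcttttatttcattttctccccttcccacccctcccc
Hoxb3 intron, chr11:96193941-96193985, plus strand: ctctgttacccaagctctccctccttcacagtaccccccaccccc
Hoxc12, outside protein-coding transcripts, chr15:102762950-102763006, plus strand: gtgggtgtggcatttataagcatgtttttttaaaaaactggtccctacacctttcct
Hoxc9 intron, chr15:102808371-102808422, plus strand: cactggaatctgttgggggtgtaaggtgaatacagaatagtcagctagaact
Hoxc10 intron, chr15:102800509-102800568, plus strand: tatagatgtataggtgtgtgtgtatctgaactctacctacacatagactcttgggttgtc
Hoxd12 coding exon, chr2:74513507-74513554, plus strand: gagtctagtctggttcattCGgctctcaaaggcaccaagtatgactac
Hoxd13 coding exon, chr2:74506594-74506638, plus strand: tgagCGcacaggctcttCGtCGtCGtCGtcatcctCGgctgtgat
Hoxd4 intron, chr2:74557169-74557218, plus strand: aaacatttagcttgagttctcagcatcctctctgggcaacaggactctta

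For contrast, the kept probe with the most CpG in its surroundings that was bright on no array is shown for each cluster. All 3 lie in coding exons, in 500 bp windows that hold 61, 48 and 74 CpG. Their mean log2 ratios were -1.15, -0.16 and -0.19, each above that of the Hoxb3 probe at 96193941, so the contrast is in brightness and not in ratio.
Hoxb9 coding exon, chr11:96132988-96133032, plus strand: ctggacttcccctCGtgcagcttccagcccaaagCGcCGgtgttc
Hoxc11 coding exon, chr15:102785392-102785436, plus strand: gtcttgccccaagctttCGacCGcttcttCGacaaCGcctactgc
Hoxd11 coding exon, chr2:74520621-74520665, plus strand: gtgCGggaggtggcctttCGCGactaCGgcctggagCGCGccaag

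MeDIP signal over the 3 clusters was sparse on the untreated arrays and more frequent on the decitabine arrays. Bright member probes numbered 23 (2.11%), 26 (2.39%), 89 (8.17%) and 81 (7.44%) of 1089. Over all 520554 probes the shares were 2.71%, 2.63%, 9.12% and 10.5%, so over the Hox clusters, as over the whole array, both decitabine arrays lay above both untreated arrays, and the Hox shares were the lower on all 4. Within each pair the order was not shared: the KO array had the higher Hox share without treatment and the lower one with decitabine, and over all probes this was the other way round. Of the 1089 probes, 987 (90.6%) were bright on no array, 40 (3.67%) on both decitabine arrays alone, 17 (1.56%) on all 4, and 0 on both untreated arrays alone. Over all 520554 probes these were 87.6%, 4.38%, 1.69% and 8 probes, so the pattern was that of the whole array. Bright on an untreated array and on neither decitabine array were 2 of the 1089 probes and 1504 of all 520554.

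On the decitabine arrays HoxB had the highest and HoxC the lowest share of the 3 clusters. In HoxB the bright probes numbered 8, 10, 33 and 36 of 352, and on the decitabine arrays their shares (9.38% and 10.2%) were close to those of all probes. In HoxC they numbered 8, 6, 23 and 19 of 363, and the decitabine shares were 6.34% and 5.23%. In HoxD they numbered 7, 10, 33 and 26 of 374. HoxA, the cluster not included here, had 8, 7, 46 and 52 bright probes of 496, with decitabine shares of 9.27% and 10.5%. The input channel was well above background for 85.4%, 73.0%, 83.1% and 67.4% of the member probes, against 83.3%, 74.0%, 79.8% and 68.8% of all probes, higher than the array on the WT arrays and lower on the KO arrays. These differences between clusters were not tested.

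**Figure D1:**
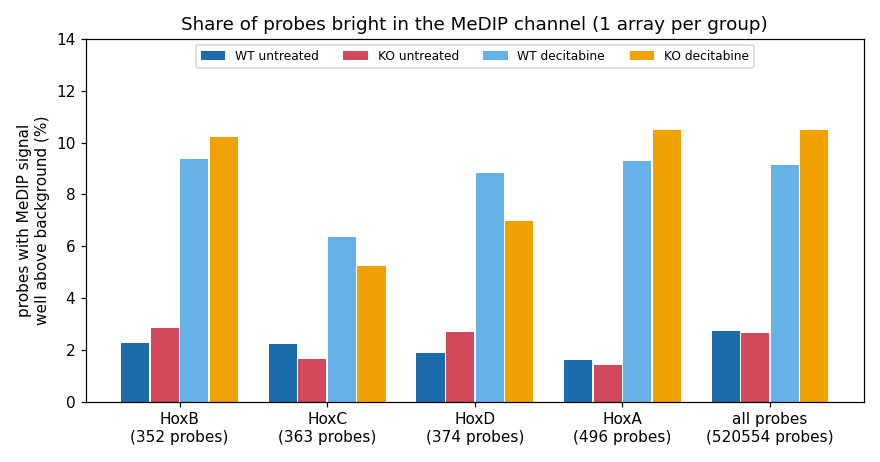
Share of probes (vertical axis, percent) with MeDIP signal well above background, for the HoxB, HoxC, HoxD and HoxA clusters and for all probes; each bar is 1 array of the named group. Every set is higher on both decitabine arrays than on both untreated arrays, and HoxC has the lowest decitabine shares, 6.34% and 5.23%.

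The bright probes were spread over most genes of each cluster. In HoxB the genes of groups 1 to 4, with 143 of the 352 probes, held 15 of the 28 probes that were bright on both decitabine arrays. In HoxC 14 of 16 such probes lay in the posterior genes, groups 9 to 13, which also carry most probes of that cluster (248 of 363). In HoxD 14 of 26 lay in Hoxd1, Hoxd3 and Hoxd4, which have 171 of the 374 probes, and 11 in Hoxd9 to Hoxd13, which have 198. The Hoxc6 and Hoxc8 genes, both patterning genes of the trunk, were among those with fewest: of their kept probes, 1 each was bright on the WT decitabine array and 0 and 1 on the KO decitabine array. Hoxb2, a hindbrain gene with 3 kept probes, had none on any array.

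**Figure D2:**
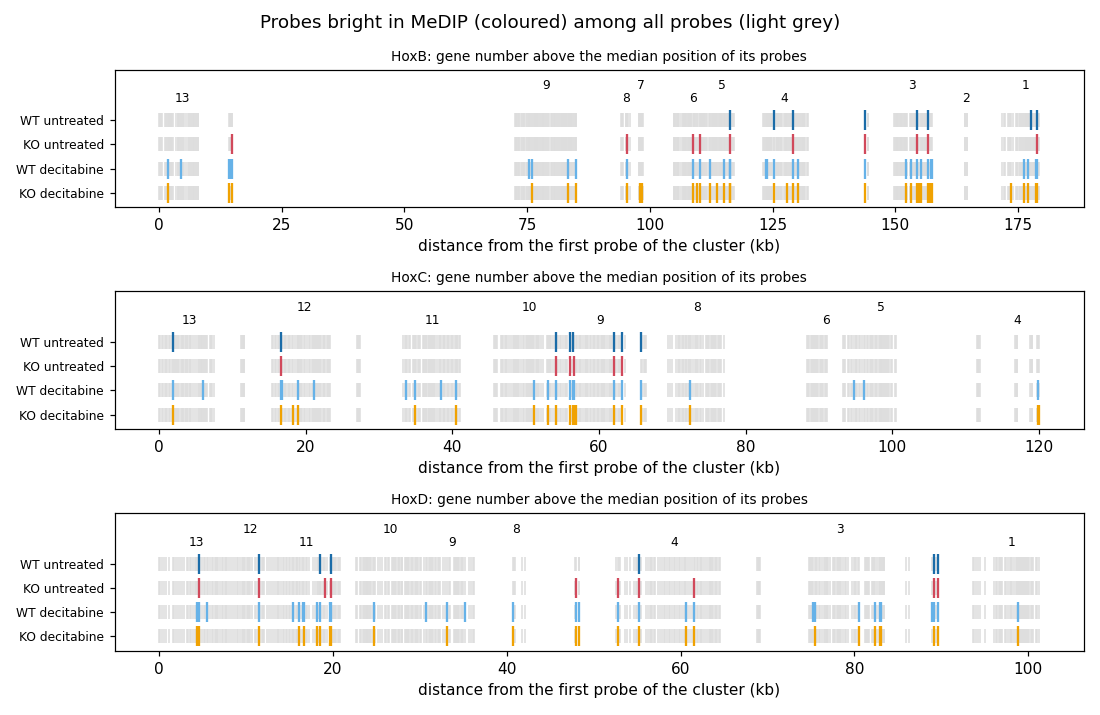
Position of every probe of the 3 clusters (horizontal axis, distance in kb from the first probe of the cluster), with 1 row of marks per array; light grey marks are all probes and coloured marks are bright probes, and numbers above give the gene at the median position of its probes. Bright marks are more numerous in the lower 2 rows (decitabine) in each cluster, 33 and 36 in HoxB, 23 and 19 in HoxC, and 33 and 26 in HoxD.

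The median Hox level lay below that of all genes on each array, farthest on the WT untreated array. The median gene of the 28 had a log2 ratio of -0.30, -0.15, -0.15 and -0.07, and the median of 18332 genes measured was -0.04, -0.04, 0.04 and 0.02. By cluster the median gene lay at -0.34, -0.15, -0.08 and -0.01 in HoxB, at -0.21, -0.12, -0.18 and -0.12 in HoxC and at -0.31, -0.20, -0.12 and -0.08 in HoxD. Each cluster's median was also below that of all genes on the same array. All 3 clusters stayed below all genes under every other setting tried on the WT untreated and WT decitabine arrays; on the KO untreated array 1 of 3 was above with no filter and 2 of 3 with centring within CpG classes, and on the KO decitabine array HoxB was above with normexp, no filter, the median over probes and CpG-class centring. With that centring the median of the 28 genes was above that of all genes on the KO untreated array (0.02 against -0.03). The distance to all genes was not tested.

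The levels went with CpG number. The median member probe had 13 CpG in its 500 bp window, against 6 for all probes. Where the window held over 40 CpG, the 51 kept Hox probes had median log2 ratios of -1.05, -0.60, -0.54 and 0.22, and the 23584 kept probes of that class over the whole array had -1.06, -0.68, -0.65 and 0.01. At 0 to 2 CpG the 70 kept Hox probes had 0.39, 0.35, 0.11 and -0.11, and all 47498 had 0.33, 0.17, 0.12 and -0.11. CpG-dense probes thus stood far below CpG-poor ones on the WT untreated array and above them on the KO decitabine array, over the Hox clusters and over the whole array alike. Across the 685 kept member probes, Pearson's r of CpG number with log2 ratio was -0.33, -0.22, -0.20 and 0.08 and Spearman's rho -0.33, -0.24, -0.20 and 0.07. These are descriptions within single arrays over probes that share DNA fragments, base composition and hybridisation.

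The classes between them differed from the array in both directions. At 6 to 10 CpG per window, the 123 kept Hox probes had medians of 0.18, 0.11, 0.01 and -0.07, and all 83714 had 0.17, 0.18, 0.27 and 0.20. In this class the Hox probes were near the array on the WT untreated array and below it on both decitabine arrays, and the bright share was 7.88% against 11.3% (WT decitabine) and 6.40% against 13.9% (KO decitabine). At over 40 CpG the order was the opposite, with bright shares of 20.2% against 13.5% (WT decitabine) and 19.0% against 15.7% (KO decitabine). These shares rest on 203 and 84 Hox probes, and were not tested. At 21 to 40 CpG the Hox medians were -0.55, -0.32, -0.48 and -0.05 and those of all probes -0.66, -0.53, -0.49 and -0.23, so here the Hox probes were the higher, by least on the WT decitabine array. At 11 to 20 CpG they were -0.17, 0.02, -0.25 and -0.10, against -0.05, -0.03, 0.07 and -0.02.

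**Figure D3:**
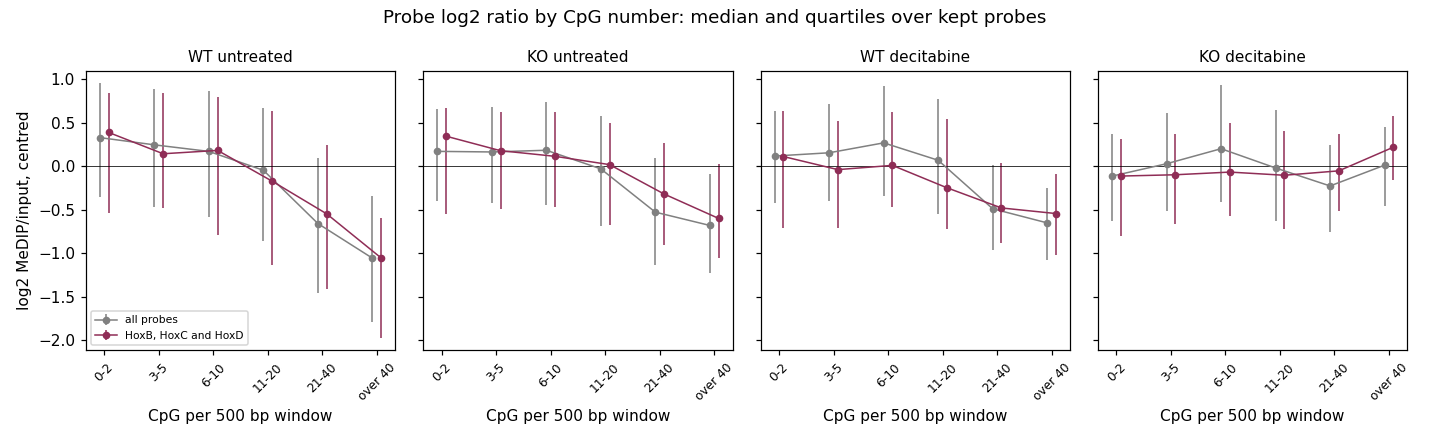
Median log2 ratio of MeDIP over input (points) with the quartiles over kept probes (bars) in 6 classes of CpG number per 500 bp window, 1 panel per array; grey is all probes and purple the HoxB, HoxC and HoxD probes. In the class over 40 CpG the Hox medians are -1.05, -0.60, -0.54 and 0.22 from the left panel to the right, beside those of all probes at -1.06, -0.68, -0.65 and 0.01.

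The anterior HoxB genes had several bright probes and small differences between arrays. Hoxb1 (chromosome 11, 96227066 to 96229570), which sets the identity of a hindbrain segment, had levels of -0.36, -0.19, -0.19 and -0.11 over 20 kept probes. Hoxb2 (96212946 to 96217003) had -0.77, -0.58, -1.08 and -0.58 over 3 probes, none of them bright. Hoxb3 (96184640 to 96207999), a gene active in early blood progenitors, had -0.32, -0.06, 0.01 and 0.18 over 34 probes, of which 3, 3, 8 and 10 were bright. Hoxb4 (96177998 to 96182952), known for expanding haematopoietic stem cells when overexpressed, had -0.08, -0.01, 0.07 and -0.04 over 38 probes, of which 2, 1, 5 and 4 were bright. Of these 4 genes, Hoxb1 and Hoxb3 were lowest on the WT untreated array and highest on the KO decitabine array, whereas Hoxb4 was highest on the WT decitabine array.

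In the middle and posterior HoxB genes, Hoxb8 stood apart from its neighbours. Hoxb5 (96163909 to 96167434), a gene that positions the shoulder girdle, had -0.33, -0.15, -0.08 and 0.02. Hoxb6 (96153790 to 96162883) had -0.07, -0.07, -0.06 and 0.19, and Hoxb7 (96145571 to 96151650) had 0.09, 0.07, 0.20 and 0.38, the latter over 6 probes. Hoxb8 (96143219 to 96146639), which blocks the maturation of myeloid progenitors when forced on, had -1.13, -0.41, -0.66 and 0.36 over 6 kept probes of 10. The annotated span of Hoxb7 begins within that of Hoxb8, so the last Hoxb8 probes lie in both genes. Hoxb9 (96132771 to 96137909), a gene of the thorax, had -0.38, -0.30, -0.24 and -0.05, and Hoxb13 (96055630 to 96058761), a gene of the tail region and prostate, had -0.35, -0.15, -0.08 and -0.25. The SD over probes was between 0.46 and 1.32 for these 6 genes on every array.

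HoxC genes mostly differed little between arrays. Hoxc4 (chromosome 15, 102849367 to 102867274), which is active in blood progenitors, had -0.55, -0.30, -0.27 and 0.09 over 10 probes. Hoxc5 (102844246 to 102847860) had -0.30, -0.28, -0.42 and -0.25, and Hoxc8 (102821053 to 102824698) had -0.24, -0.22, -0.18 and -0.22. Hoxc6 (102828688 to 102842312) had 0.44, 0.23, 0.17 and 0.04 over 18 probes, the reverse order of Hoxc4. On the WT untreated array, where neither gene had a bright probe, Hoxc4 thus had its lowest and Hoxc6 its highest value of the 4 arrays.

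The posterior HoxC genes held most of the bright probes of the cluster. Hoxc9 (102806870 to 102815530), which specifies thoracic motor neurons, had 0.03, 0.11, -0.18 and -0.12 over 29 probes, of which 5, 4, 6 and 7 were bright. Hoxc10 (102797227 to 102802324), a gene of the lumbar region, had -0.20, -0.12, -0.31 and -0.21. Hoxc11 (102784858 to 102788139) had -0.33, -0.39, -0.47 and -0.43. Hoxc12 (102767188 to 102769040) had -0.21, -0.10, -0.07 and 0.14, and Hoxc13 (102751534 to 102759245), needed for hair and nails, had -0.03, 0.14, 0.03 and 0.07. Hoxc9, Hoxc10 and Hoxc11 were thus lower on each decitabine array than on the untreated array of the same genotype, the largest of these differences being -0.23.

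In HoxD the genes that flank Hoxd8 differed less than Hoxd8 itself. Hoxd1 (chromosome 2, 74601037 to 74603200), a gene of pain-sensing neurons, had -0.34, -0.21, -0.42 and -0.15 over 28 probes. Hoxd3 (74549986 to 74586331), whose annotated span encloses Hoxd4, had -0.31, -0.26, -0.12 and 0.07, and Hoxd4 (74560035 to 74567217) had -0.20, -0.10, -0.10 and 0.03. Hoxd8 (74542672 to 74545990) had -1.94, -0.40, -0.03 and 0.79 over 3 kept probes of 5. Hoxd9 (74535737 to 74538265), a limb gene, had -0.85, -0.49, -0.57 and -0.37 over 19 probes. Hoxd3, Hoxd4, Hoxd8 and Hoxd9 were all lowest on the WT untreated array and highest on the KO decitabine array.

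The posterior HoxD genes, which shape forearm and digits, had no common order. Hoxd10 (74529147 to 74533163) had -0.03, -0.04, -0.12 and -0.32. Hoxd11 (74517449 to 74525798) had -0.58, -0.38, -0.43 and -0.18 over 28 probes, of which 2, 1, 8 and 6 were bright. Hoxd12 (74512986 to 74515763) had 0.05, 0.22, -0.32 and -0.08, and Hoxd13 (74506367 to 74509656), whose fusion with NUP98 occurs in myeloid leukaemia, had -0.26, -0.10, 0.01 and -0.08. Hoxd10 and Hoxd12 were lower on both decitabine arrays than on the untreated array of their genotype, and Hoxd11 and Hoxd13 were higher.

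**Figure D4:**
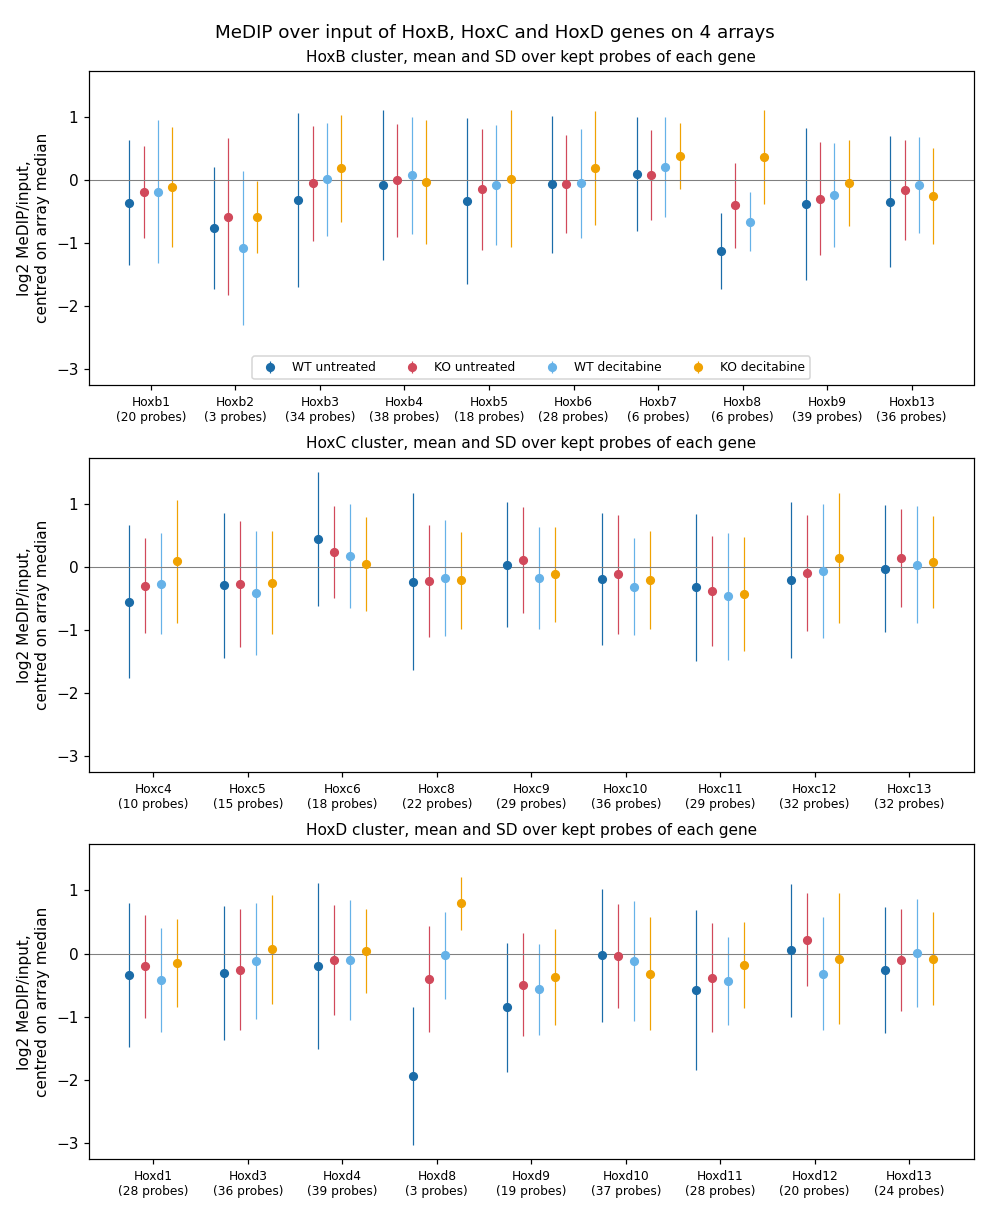
Log2 ratio of MeDIP over input (vertical axis, centred on the array median) of each HoxB, HoxC and HoxD gene on the 4 arrays; points are means and bars the SD over the kept probes, whose number is under each gene name. The bars of the 4 arrays overlap for nearly every gene; Hoxd8 runs from -1.94 to 0.79 over 3 probes and Hoxb8 from -1.13 to 0.36 over 6.

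Decitabine against untreated was compared within each genotype to ask how MeDIP enrichment over the clusters differed with the drug. Hoxd8 was the only member of 28 past the call rule, which asks for a gene mean at least 2-fold apart with at least 80% of the kept probes moving that way, in WT cells (1.91 ± 0.71, 3 of 3 probes higher) and in KO cells (1.20 ± 0.51, 3 of 3). Over all 18332 genes the same rule called 0.649% higher and 0.0927% lower in WT cells, and 0.666% higher and 0.0491% lower in KO cells; no member was called lower. The median difference of the 28 genes was 0.13 in WT cells, with 19 above 0, and 0.07 in KO cells, with 18 above 0. For all genes it was 0.10 and 0.09, with 62.7% and 62.1% above 0, so the members' medians and shares were close to the background.

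The direction differed between the clusters under this scaling. Median differences in WT and KO cells were 0.16 and 0.20 in HoxB, with 9 and 7 of 10 genes above 0, and 0.15 and 0.12 in HoxD, with 6 and 7 of 9 above 0. In HoxC they were -0.12 and -0.04, with 4 of 9 above 0 in both genotypes. With loess within arrays the HoxB medians turned to -0.12 and -0.06, beside -0.09 and -0.07 for all genes, and with centring on bright probes to -0.28 and -0.55. With the median over probes the HoxB median in WT cells was -0.09, beside -0.05 for all genes, so in WT cells HoxB lay below all genes with loess and with the median over probes. The HoxC medians turned to 0.063 in WT cells with normexp, to 0.061 in KO cells with the deposited log ratio, and to 0.038 and 0.077 with all-probe centring. Centring on bright probes moved the median of all genes from 0.10 to -0.35 in WT cells and from 0.09 to -0.66 in KO cells and shifts every gene alike, so it cannot change the order against all genes. The difference between clusters was not tested.

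Hoxd8 was the only gene of the 28 whose difference exceeded the SD among its own probes, in both genotypes. In HoxB the largest difference after Hoxb8 in WT cells was that of Hoxb3 (0.33 ± 1.07), and in KO cells that of Hoxb7 (0.30 ± 1.0). The lowest were Hoxb2 in WT cells (-0.31 ± 0.36), with no bright probe on either array, and Hoxb13 in KO cells (-0.10 ± 0.89). In HoxC, Hoxc4 was highest in both genotypes (0.28 ± 0.93 and 0.39 ± 0.98), and lowest were Hoxc6 in WT cells (-0.27 ± 0.84) and Hoxc9 in KO cells (-0.23 ± 0.72). In HoxD, Hoxd12 was lowest in both (-0.37 ± 0.42 and -0.30 ± 0.66). Across the 28 genes the WT and KO differences, which share no array, had Pearson's r 0.86 and Spearman's rho 0.67. The sign was the same in 23 of 28, and in 13391 of all 18332 genes. Without the 4 genes under 10 kept probes, r was 0.71 and rho 0.60 over 24 genes, against 0.60 and 0.58 over all 18332. Genes are not independent replicates, and the values share the arrays' hybridisations and the genes' base composition.

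**Figure D5:**
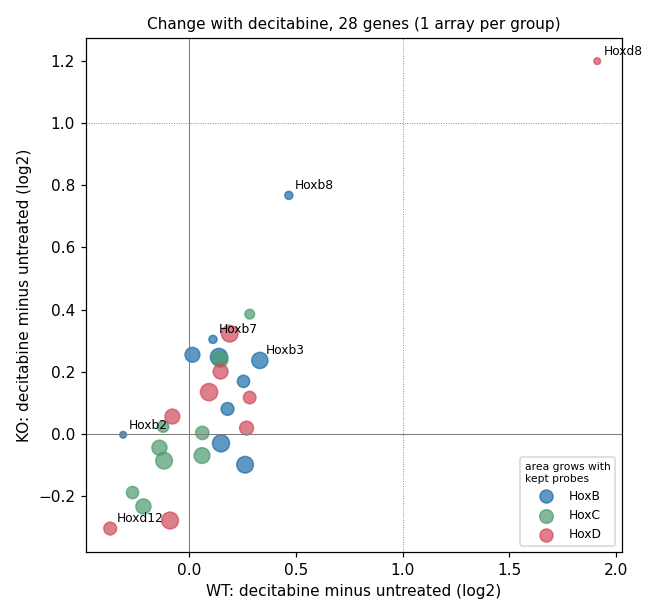
Difference in log2 ratio between the decitabine and untreated arrays of each of 28 genes, in WT cells (horizontal axis) and KO cells (vertical axis); points are coloured by cluster, their area grows with the number of kept probes, and dotted lines mark 2-fold. Hoxd8 alone lies past both dotted lines, at 1.91 and 1.20, and Hoxb8 is at 0.47 and 0.77.

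Decitabine was also tested over the 4 arrays with limma in an additive model of genotype and treatment. The model leaves 1 residual degree of freedom, the interaction, so the SE given reflects departure from additivity and not variation between replicates. The SE is also drawn by limma toward a value shared by all genes and lay near 0.12 for most members. It therefore understates a large departure of a single gene: Hoxd8 had an SE of 0.16 although its WT and KO differences were 1.91 and 1.20. Of the 28 genes, 2 passed the test and both rose, Hoxd8 (1.56 ± 0.16 SE, adjusted p = 0.00154) and Hoxb8 (0.62 ± 0.13, adjusted p = 0.0166), with higher values in both genotypes. Over all genes 11% rose and 3.5% fell, so 2 of 28 rising is below the share of the background. None of the 9 HoxC genes passed in limma in this setting, and 1 of them, Hoxc4, had a p under 0.05 before adjustment (0.33 ± 0.12, adjusted p = 0.0867). Over the 28 genes 5 had such a p, against 33.1% of all genes. Hoxc4 did pass with the median over probes, the deposited log ratio, at least 10 probes and all-probe centring. Hoxd12 passed, as lower, with at least 10 probes and with CpG-class centring. Under centring on bright probes 1 member rose, Hoxd8, and 14 fell, but 10037 of all 18332 genes fell under it too and 74 rose.

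KO against WT was compared to ask how enrichment over the clusters differed with genotype. Without treatment, Hoxd8 was called higher in KO cells (1.53 ± 1.13, 3 of 3 probes), and with decitabine Hoxb8 was (1.02 ± 1.12, 5 of 6 probes). Over all genes 0.196% were called higher and 0.164% lower without treatment, and 0.458% higher and 0.104% lower with decitabine; no member was called lower in either. The 28 genes had a median difference of 0.12 without treatment, with 24 above 0, and of 0.17 with decitabine, with 22 above 0. For all genes the medians were 0.00 and -0.01, and 50.6% and 48.0% lay above 0. These 2 medians turned to -0.10 and 0.00 with loess and the second to -0.08 with bright-probe centring, while the medians of all genes went to -0.10, -0.10 and -0.26. With loess 8 and 14 of the 28 were above 0. With CpG-class centring, chosen after seeing the data, the 2 medians were 0.07 and 0.08, with 21 and 18 above 0, beside 0.00 and 0.00 for all genes. The part of CpG density in these differences was not tested.

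By cluster, the KO minus WT medians without treatment were 0.18 in HoxB, 0.07 in HoxC and 0.16 in HoxD, and with decitabine 0.17, 0.06 and 0.20. The lowest genes were Hoxb7 (-0.02 ± 0.99), Hoxc6 (-0.21 ± 0.85) and Hoxd10 (-0.01 ± 0.63) without treatment, none with a bright probe on either array, and Hoxb13 (-0.17 ± 0.63), Hoxc6 (-0.13 ± 0.44) and Hoxd10 (-0.20 ± 0.65) with decitabine. Hoxc4 was the highest HoxC gene in both (0.25 ± 0.57 and 0.35 ± 0.53). In the limma model, Hoxd8 (1.18 ± 0.16 SE, adjusted p = 0.0114) and Hoxb8 (0.87 ± 0.13, adjusted p = 0.0119) were higher in KO cells, and over all genes 2.01% were higher and 2.1% lower. The other 26 genes did not pass in limma in this setting, and 5 of the 28 had a p under 0.05 before adjustment, against 22.6% of all genes. Hoxc4 also passed for genotype with normexp, Hoxb2 with the median over probes, and Hoxb2, Hoxb7 and Hoxc4 with no filter. Over all genes 480 were higher and 129 lower with normexp, and 246 and 205 with the median over probes. With no filter 1469 were higher and 1256 lower of 18939, far more than in the reported setting.

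The Hoxd8 values rest on 3 probes within its annotated span, in windows with 32 to 59 CpG. The 2 printed here lay 94 and 880 bp from the nearest annotated start. The sequences of the 2 that do not overlap an untranslated region show these CpG-rich coding sites.
Hoxd8 coding exon, chr2:74542744-74542788, plus strand: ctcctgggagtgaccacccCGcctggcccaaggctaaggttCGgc
Hoxd8 coding exon, chr2:74544064-74544114, plus strand: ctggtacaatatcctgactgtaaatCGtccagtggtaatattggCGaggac
The first had log2 ratios of -3.18, -0.59, -0.55 and 0.48 and was bright on the decitabine arrays alone. The second had -1.14, 0.51, 0.75 and 1.28 and the remaining one -1.49, -1.14, -0.28 and 0.63, and neither was bright on any array. All 3 probes were thus lowest on the WT untreated array and highest on the KO decitabine array.

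The size of the Hoxd8 difference is limited by dim signal. On the WT untreated array all 3 probes held surrogate values, which the scanner software puts in place of signals too near background, and on no other array did they. Dim KO untreated values were also raised to the lowest signal that was well above background. The KO decitabine level was then 1.12-fold above KO untreated. This is not a lower bound, since only 1 of the 3 probes was bright on the KO decitabine array and its level was taken as measured. No fold can be given for WT decitabine against WT untreated or for KO against WT without treatment. With decitabine, where 1 of the 3 probes was bright on both arrays, KO was above WT by 0.82 ± 0.26, short of the call. With no measured level on the WT untreated array, the decitabine differences of the 2 genotypes cannot be compared.

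Hoxb8 was measured by 6 kept probes in windows with a median of 34 CpG, and 1 of them was bright on every array but WT untreated. That probe had log2 ratios of -1.91, -1.05, -0.36 and 0.74, higher with decitabine in both genotypes. For KO against WT with decitabine the 6 probes differed by 3.09, 1.10, 1.07, 0.77, 0.18 and -0.09. The largest came from a probe that was bright on no array, and when the gene was summarised by its median probe it differed by 0.92 and was not called. With a single bright probe, the gene means of Hoxb8 average mostly over signals not well above background.

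CpG density moved with both genes' results. Over the whole array the kept probes with over 40 CpG had median differences of 0.19 and 0.56 with decitabine in WT and KO cells, and of 0.40 and 0.58 for KO against WT without and with decitabine. The 51 Hox probes of that class had 0.53, 0.68, 0.56 and 0.61. When each probe was centred on its own CpG class, a setting chosen after seeing the data, Hoxd8 was still called for decitabine in WT cells (1.59). It was no longer called in KO cells (0.64) or for KO against WT without treatment (1.24), and Hoxb8 with decitabine was at 0.69 and not called. In limma with that centring the decitabine difference of Hoxd8 passed (adjusted p = 0.00568) and that of Hoxb8 did not (adjusted p = 0.116), and for genotype Hoxb8 passed (adjusted p = 0.0308) and Hoxd8 did not (adjusted p = 0.0556). The part of CpG density in the remaining difference was not tested.

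Other settings also ended calls of these 2 genes. With loess within arrays the Hoxd8 decitabine difference was 1.04 in WT and 0.22 in KO cells, and neither gene passed limma for decitabine (adjusted p = 0.255 and 0.985) or genotype (adjusted p = 0.205 and 0.316). With no filter on dim probes Hoxd8 still passed limma for decitabine and Hoxb8 did not (adjusted p = 0.288). Asking for at least 10 kept probes leaves both genes out. The members passing limma for decitabine were then Hoxc4, as higher, and Hoxd12, as lower, of 24. Over all 15031 genes of that setting 2341 were higher and 731 lower, so the members' share was below the background.

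The 17 probes bright on all 4 arrays give the differences least limited by background. The array design names them for Hoxb1, Hoxb3, Hoxb4, Hoxb5, Hoxc9, Hoxc10, Hoxc12, Hoxd1, Hoxd4, Hoxd11, Hoxd12 and Hoxd13. Of these, Hoxb3 and Hoxc9 have 3 each and Hoxd1 has 2, and 9 of the 17 hold no CpG. In KO cells all 17 were higher with decitabine, with a median difference of 1.10 and a range of 0.05 to 2.02, and in WT cells 12 of 17 were, with a median of 0.75. Among all 8687 kept probes bright on all 4 arrays 90.1% and 76.8% were higher, with medians of 0.80 and 0.61, so such probes were higher with decitabine over the whole array. For KO against WT, 7 of 17 were higher without treatment (median -0.06) and 12 of 17 with decitabine (median 0.29), against 54.2% (0.08) and 68.9% (0.26) of all. Probes were selected for brightness on each of the arrays compared, and nearby probes share fragments.

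Single bright probes moved differently. The Hoxd12 exon probe printed above had 2.68, 2.13, 1.89 and 3.64, higher with decitabine in KO cells and lower in WT cells. The Hoxc12 probe had 1.99, 1.41, 1.42 and 1.60 and the Hoxc9 intron probe 1.90, 1.39, 1.35 and 1.64, both with their highest value on the WT untreated array. By contrast the Hoxb3 intron probe at 96206797, in a window with 45 CpG, had -2.13, -1.25, 0.01 and 0.57, and the Hoxd13 exon probe, with 66 CpG in its window and 6 in itself, had 0.58, 0.53, 1.33 and 1.62. The latter pair stood higher on both decitabine arrays than on both untreated arrays.

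Bright probes also lay in runs. In 10 places at least 2 probes bright on both decitabine arrays lay within 500 bp of the next such probe: 3 in HoxB, 1 in HoxC and 6 in HoxD. Other probes could lie between them, as in the Hoxb3 and Hoxc9 places below, which held 5 probes each, 3 of them bright on both. Such places were not counted over the rest of the array. The longest was in Hoxb3 (96206797 to 96207581), from an intron into a coding exon, where the 3 such probes had mean log2 ratios of -1.85 ± 0.45, -0.96 ± 0.40, -0.14 ± 0.13 and 0.43 ± 0.12. In Hoxc9 (102802412 to 102803024) 3 probes outside protein-coding transcripts had -0.29 ± 1.46, -0.09 ± 0.70, 0.46 ± 0.57 and 0.43 ± 0.25. At the start of Hoxd13 (74506367 to 74506638) 2 probes had -1.05 ± 2.31, -0.16 ± 0.98, 0.65 ± 0.97 and 1.22 ± 0.57. In all 3 runs both decitabine arrays lay above both untreated arrays. The runs were found by their brightness on the decitabine arrays, so that order is in part how they were chosen. The SDs are over 2 or 3 neighbouring probes that share fragments, so they cannot show whether the arrays differ.

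By gene feature, coding exons had the lowest level on every array but KO decitabine, where untranslated regions did. Of the 1089 probes, 440 lay outside protein-coding transcripts, 326 in introns, 167 in coding exons and 156 in untranslated regions. Coding exon probes had a median of 34 CpG per window and median log2 ratios of -0.81, -0.43, -0.52 and -0.05 over 107 kept probes. Intron probes had 9 CpG and 0.02, 0.13, -0.03 and 0.03 over 197. Untranslated regions, with 15 CpG, had -0.24, -0.13, -0.30 and -0.10 over 98, and probes outside transcripts -0.11, -0.05, -0.17 and -0.08 over 283. The distance between exons and introns was largest on the WT untreated array and smallest on the KO decitabine array. Bright shares on the decitabine arrays were 12.0% and 12.0% in coding exons, 8.33% and 8.97% in untranslated regions, 7.67% and 7.36% in introns and 7.05% and 5.23% outside transcripts.

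Near transcription starts the clusters were close to other promoters on the WT untreated array and above them on the KO decitabine array. Within 500 bp of an annotated start, 110 kept Hox probes had medians of -0.54, -0.23, -0.45 and 0.09, and 76322 kept probes of the array had -0.48, -0.39, -0.36 and -0.11. From 501 to 2000 bp, the 274 Hox probes had -0.29, -0.09, -0.34 and -0.07, below all 123289 probes at 0.11, 0.06, 0.10 and 0.01. Hox windows at that distance had a median of 15 CpG, against 6 for all probes, so CpG number moved with this difference, and its part was not tested. Beyond 2000 bp the Hox medians were 0.02, 0.08, -0.06 and -0.09, against 0.15, 0.14, 0.13 and 0.06.

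The HoxA cluster, measured by 11 genes, had decitabine medians of 0.24 in WT and 0.17 in KO cells, with 10 and 9 of 11 above 0; the first was above that of each of the 3 clusters and the second below that of HoxB. In limma 1 of 11 rose with decitabine, Hoxa5 (0.56 ± 0.13 SE, adjusted p = 0.0225), and none differed by genotype; Hoxa7 was nearest (0.54 ± 0.13, adjusted p = 0.0532), and no HoxA gene was called in a comparison of 2 arrays. Of 21 genes that lie beside the 3 clusters 19 were measured. Their decitabine medians were -0.05 in both genotypes, and their KO minus WT medians were -0.18 and -0.12 with 4 of 19 above 0, opposite in sign to the clusters' 0.12 and 0.17. In limma 1 of 19 rose with decitabine, Zfp385a beside HoxC (0.55 ± 0.12, adjusted p = 0.0188), and none differed by genotype. Over all genes 11% rose with decitabine, so neither 1 of 11 nor 1 of 19 lay above the background. By genotype 2.01% of all genes were higher and 2.1% lower in KO cells.

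Genes of Hox cofactors and regulators were also read. These 26 were partners that bind DNA with Hox proteins (Meis, Pbx and Pknox genes), Cdx activators of the clusters, polycomb repressors and trithorax-group activators. With decitabine 4 of 26 rose in limma and none fell: the partners Pbx2 (0.67 ± 0.12 SE, adjusted p = 0.0104) and Pbx4 (0.61 ± 0.14, adjusted p = 0.0217), and the polycomb genes Cbx2 (0.46 ± 0.12, adjusted p = 0.0388) and Cbx7 (0.46 ± 0.13, adjusted p = 0.0470). That is 4 of 26 beside 11% of all genes, and none passed for genotype. The medians of the 26 with decitabine were 0.12 in WT and 0.22 in KO cells, and their KO minus WT medians were 0.11 without treatment and 0.09 with decitabine.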

How the data were processed

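Each of the 4 samples was 1 Agilent 2-colour array, with MeDIP DNA in Cy3 and input DNA in Cy5 on all, per the labels, so no dye swap separates dye from enrichment; both DNAs had been amplified across the genome, which can distort ratios. The authors deposited scanner output on a linear intensity scale, made with Agilent Feature Extraction (10.5 in the submitters' processing notes; 10.5.1.1 per the file headers), with background subtracted and detrended, surrogate values for signals near background and dyes normalized, on an mm9 design. The deposited log ratio (log10, Cy5 over Cy3) served as an alternative; the series' value table was not used because its identifiers match no probe column. Each array lies on its own slide, and the effects of slide and group cannot be told apart.

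For each spot MeDIP was divided by input on the log2 scale, and spots of a probe were averaged. A probe was kept if on all 4 arrays its input exceeded background by the scanner's test and neither channel was marked as non-uniform (328399 of 520554, 63.1%), and ratios were centred on the array median of kept probes. Genes had at least 3 kept probes (18332 genes). On the kept member probes 63.8%, 61.6%, 41.0% and 40.0% of MeDIP values were surrogates, against 59.1%, 56.8%, 37.0% and 35.8% of all kept probes. Signal over background and the number of arrays limit the precision. Comparisons of 2 arrays carry no test. The additive model was fitted with limma 3.58.1 (lmFit, eBayes) in R 4.3.3, with Benjamini-Hochberg adjustment over all genes, and tested on simulated data. CpG were counted in 500 bp windows of the mm9 genome, and features and starts came from GENCODE vM1. Alternatives were normexp (offset 50), loess, centring on bright probes, no filter, the median over probes, the deposited log ratio and at least 10 probes; centring on all probes and within CpG classes were added after seeing the data.

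All 28 genes were to be named, with values on each array for those with a probe bright on all 4 arrays, those called, and the highest and lowest of each cluster in each comparison; the Hoxd8 probes were printed after its values were seen. The members and comparison lists were chosen with earlier results of these data known.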

Additional observations from a re-analysis of the deposited data

Results flagged for a closer look

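For 5 genes the WT and KO arrays pointed opposite ways with decitabine, and none of these differences was tested. The sign was the same in 23 of the 28 genes and in 13391 of all 18332, so opposite signs were not particular to the Hox genes. The decitabine difference in KO cells minus that in WT cells was -0.36 for Hoxb13, -0.18 for Hoxb4, -0.13 for Hoxc13, 0.15 for Hoxc5 and 0.14 for Hoxd1. The SD of the changes over the probes of these genes was between 0.59 and 1.11, larger than each difference.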

How the results depend on the processing

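Of 312 alternative values of medians and single genes, 253 kept their direction and their side of the threshold or moved by less than the spread among genes, 35 moved by more, 23 lost the call and 1 reversed: Hoxb8 for decitabine in WT cells, -0.26 with loess. The cause of these shifts was not tested. Hoxd8 remained called for decitabine in WT cells under every setting that keeps it (1.04 to 2.07). Asking for at least 10 probes left 0 members called in all 4 comparisons. The order here is decitabine in WT, decitabine in KO, then KO against WT without and with decitabine. Over the 15031 genes of that setting 31, 11, 1 and 3 were called higher and 1, 1, 6 and 1 lower. Calls for decitabine in KO cells were 0 with normexp, loess, no filter and CpG-class centring, and 2 with bright-probe centring (Hoxd10 and Hoxd12, lower). Over all genes, bright-probe centring called 5 higher and 2345 lower in KO cells. The other settings called few genes: 21 higher and 12 lower with normexp, 12 and 15 with loess, 104 and 8 with no filter, 41 and 20 with CpG-class centring. Calls for KO against WT without treatment were 0 with normexp, loess and CpG-class centring, and with decitabine 0 with these 3, bright-probe centring, no filter and the median over probes. Without treatment the first 3 settings called 56, 12 and 14 genes higher and 8, 50 and 24 lower over all genes. With decitabine the settings named called between 16 and 118 genes higher and between 2 and 111 lower. Genes passing limma for decitabine were 1 with normexp, 0 with loess, 15 with bright-probe centring, 1 with no filter and 5 with all-probe centring; for genotype 0 with loess, 5 with no filter, 0 with at least 10 probes and 1 with CpG-class centring. Over all genes, the limma decitabine calls were 2011 higher and 641 lower in the reported setting, 489 and 155 with normexp, 0 and 0 with loess, 74 and 10037 with bright-probe centring, 752 and 299 with the median over probes, 2931 and 357 with the deposited log ratio, 5459 and 318 with all-probe centring and 1144 and 343 with CpG-class centring. They were 2289 and 695 with no filter and 2341 and 731 with at least 10 probes. Genotype calls over all genes were 369 higher and 385 lower in the reported setting and 1 and 5 with loess. They were 1469 and 1256 with no filter, 252 and 552 with at least 10 probes and 89 and 174 with CpG-class centring.

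Median decitabine differences moved in HoxB to -0.12 (WT) and -0.062 (KO) with loess, -0.28 and -0.55 with bright-probe centring and -0.091 (WT) with the median over probes, in HoxC to -0.57 and -0.80 and in HoxD to -0.63 (KO) with bright-probe centring. KO minus WT medians without treatment moved to -0.12 in HoxB and -0.13 in HoxC with loess, and with decitabine to -0.18 in HoxC with bright-probe centring. Levels moved with loess to 0.13 (WT untreated) and 0.14 (KO untreated) in HoxB, 0.25 (WT untreated) in HoxC and 0.038 (KO untreated) in HoxD, with no filter to 0.10 in HoxC (KO untreated) and with CpG-class centring to 0.079 in HoxB (KO untreated). With all-probe centring they were -1.02, -0.75, -0.61 and -0.48 in HoxB, -0.89, -0.72, -0.71 and -0.60 in HoxC and -0.99, -0.80, -0.64 and -0.56 in HoxD. With bright-probe centring the WT and KO decitabine levels were -0.68 and -0.86 in HoxB, -0.79 and -0.97 in HoxC and -0.72 and -0.93 in HoxD. Centring shifts all genes alike, so differences from all genes are unaffected by the 2 whole-array centrings.

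All-probe and CpG-class centring were chosen after seeing the data. No paired analysis was possible because each group has 1 array, and for the same reason no array could be left out and no slide block fitted. MeDIP signal near background limits Hoxd8, Hoxb8 and most other values, which average over dim probes.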
